A study of Arabidopsis thaliana with 18 samples.

Results

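The recovery step of Arabidopsis thaliana after osmotic stress was compared between roots and leaves. The organ difference was taken, on the log2 scale, as the day 11 minus day 10 difference in roots (the root step) minus the same difference in leaves (the leaf step). It used 12 of the study's 18 Affymetrix ATH1 arrays, which formed 4 groups of 3 biological replicates. These were day 11 roots, day 10 roots, day 11 leaves and day 10 leaves of wild-type Columbia-0 plants, all labelled osmotic. A positive organ difference means that the root step lay above the leaf step, through a rise in roots, a fall in leaves or both. The plants of all 4 groups grew hydroponically on MGRL medium. Per the labels' protocols, the stress was 0.3 M mannitol in that medium for 3 h in the light, and recovery plants were then moved back to medium without mannitol for 1 day. The day 11 groups were taken as those recovery plants and the day 10 groups as plants sampled under stress. The other 6 arrays, 3 of mock roots and 3 of mock leaves with the day 10 label, stand outside the contrast, and their means are quoted only for context. The labels name days 10 and 11 while the protocol speaks of plants 30 days old, so the age is not settled here. The step from day 10 to day 11 holds the return to basal medium, a day of age and any change in the hour of sampling, which cannot be told apart.

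Mannitol lowers the water potential of the medium, so that roots meet the stress directly and leaves meet it through the water they receive from the roots. Under such stress plants raise abscisic acid (ABA), induce protective proteins such as the late embryogenesis abundant (LEA) proteins, and slow the loosening of walls and the division of cells. When water returns, stress transcripts go down again and genes of growth come back, among them expansins, which loosen the wall, and xyloglucan endotransglucosylase/hydrolases (XTH), which cut and rejoin its xyloglucan. Roots and leaves draw on different members of many of these families.

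All levels are log2 expression as deposited by the authors, for 22746 probe sets after the manufacturer's 64 control probe sets were left out. Array medians over the whole series lay between 6.553 and 6.69. Arrays of the same group correlated, across probe sets, at 0.9925 to 0.9939 in day 11 roots, 0.9867 to 0.9940 in day 10 roots, 0.9886 to 0.9928 in day 11 leaves and 0.9879 to 0.9885 in day 10 leaves, with probe sets not being independent replicates. Within those groups the median SD of a probe set was 0.130, 0.156, 0.146 and 0.174 in the same order. Organ markers followed the labels. The 4 measured of 9 leaf markers averaged 4.38 and 4.19 in day 11 and day 10 roots, and 10.80 and 10.50 in day 11 and day 10 leaves. The 3 measured of 10 root markers averaged 10.05 and 10.11 in day 11 and day 10 roots, and 5.42 and 5.65 in day 11 and day 10 leaves. None of the 7 markers had an organ difference past the threshold, from EXPA7 at -0.65 (adjusted p = 0.1) to PYK10 at 0.93 (adjusted p = 0.2) in the limma fit. The whole organ was extracted, so fewer cells of a type and less transcript per cell cannot be told apart in any result below. Levels no higher than the arrays' lower quartiles (4.265 to 4.495) were not separated from background, and a change that starts or ends there is at best a lower bound. An organ difference is called limited by the background where a fall as large as that of the changing organ would have taken the other organ from its day 10 mean to below that quartile.

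In all, 2094 of 22746 probe sets (9.21%) had an organ difference past an adjusted p of 0.05 in the limma fit, 1042 higher (4.58%) and 1052 lower (4.62%). Of these, 675 were higher (2.97%) and 674 lower (2.96%) by at least 2-fold. The background limited 300 of the 1052 lower differences in leaves and 170 of the 1042 higher ones in roots. The root step itself passed for 3617 probe sets (15.9%), of which 1883 rose (8.28%) and 1734 fell (7.62%). The leaf step passed for 3062 (13.5%), of which 1594 rose (7.01%) and 1468 fell (6.45%). With the arrays centred on their medians the balance turned, to 1672 rising and 1892 falling in roots and 1443 rising and 1645 falling in leaves. Without day 10 leaf replicate 2 the leaf step passed for 1734 probe sets, and without day 11 leaf replicate 3 for 1999. The organ difference was less dependent on single arrays, with 1505 to 2044 probe sets when each of the 12 arrays was left out in turn. Among the 13355 genes measured by their own probe set, from which named genes were taken, 579 were higher (4.34%) and 555 lower (4.16%), together 8.49%. The root step of these genes rose in 7.52% and fell in 6.65%, and the leaf step rose in 6.26% and fell in 5.68%.

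The changes of both organs resembled each other in part. Across all 22746 probe sets the root step and the leaf step, which share no array, had a Pearson correlation of 0.325 and a Spearman correlation of 0.278. Over the 9922 probe sets bright in both organs these were 0.465 and 0.415, again across probe sets, which are not independent replicates. Where both steps passed the threshold, for 892 probe sets, 786 (88.1%) went the same way and 106 (11.9%) opposite ways. All 106 with opposite steps also passed the test of the organ difference. That is nearly built in, because opposite steps add up in the difference of the steps. Of the 786 with the same direction, where the steps partly cancel, 78 passed.

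**Figure D1:**
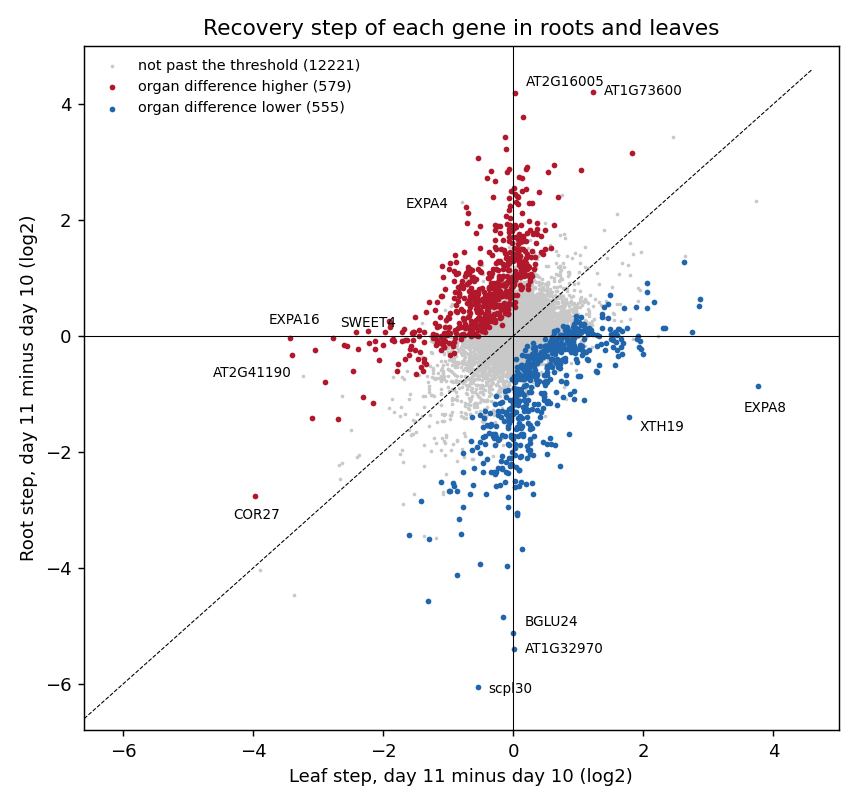
Root step against leaf step of the 13355 genes measured by their own probe set, each step being the day 11 minus day 10 difference of means of 3 arrays on the log2 scale. Red points are the 579 genes with a higher and blue points the 555 genes with a lower organ difference past the threshold, grey points the 12221 others, and on the dashed line both steps are equal; many coloured points lie along an axis, with scpl30 at a root step of -6.06 and EXPA8 at a leaf step of 3.76.

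Most organ differences came with a step past the threshold in 1 organ only. That form was also the commoner over all probe sets, with 4895 against 892 with both steps past. Among the 1042 higher organ differences, the root rose while the leaf step did not pass in 602 (57.8%). The leaf fell while the root step did not pass in 285 (27.4%). In 68 the root rose and the leaf fell. Among the 1052 lower ones, the root fell while the leaf step did not pass in 528 (50.2%), and the leaf rose while the root step did not pass in 380 (36.1%). In 38 the root fell and the leaf rose. Where both organs went the same way, 41 probe sets fell further in roots, 18 fell further in leaves, 10 rose further in roots and 9 rose further in leaves. The other 59 higher and 56 lower differences had neither step past the threshold. A step that misses the threshold is not shown to be absent, so these classes say which step passed and not that the other organ stayed put. In sum the root step alone passed for 1130 probe sets and the leaf step alone for 665, a count of 418 without day 10 leaf replicate 2. Over all probe sets too the root step passed more often, for 3617 against 3062 for the leaf step.

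**Figure D2:**
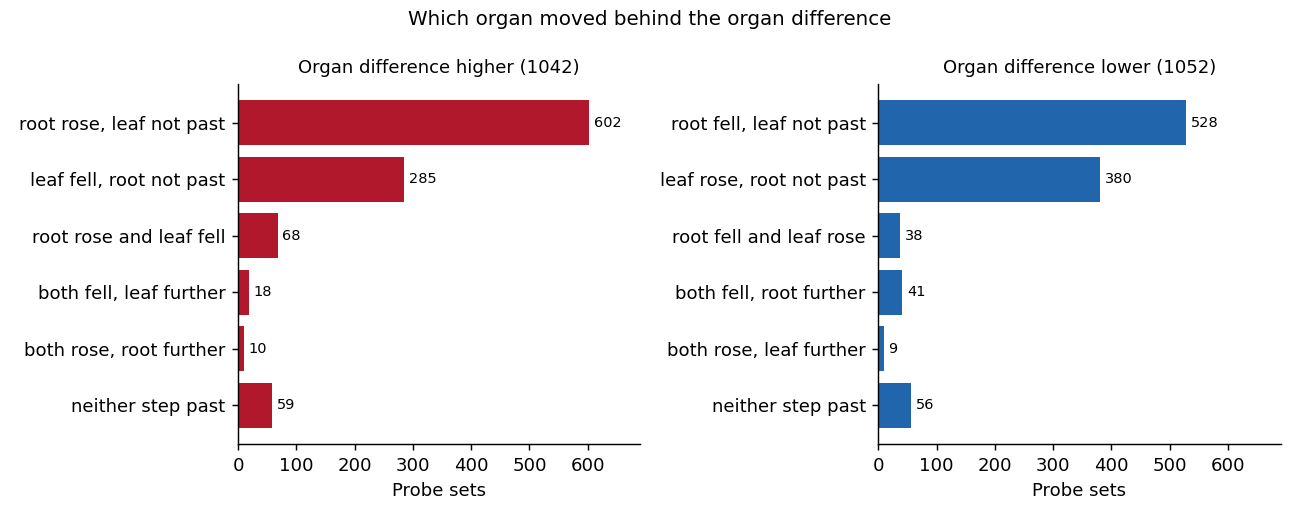
Number of probe sets with an organ difference past the threshold, split by which organ's step also passed and in which direction, for the 1042 higher differences (left) and the 1052 lower ones (right). The root step alone gives the longest bar on both sides, 602 and 528, and the leaf step alone the next, 285 and 380.

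Of the 7 lowest organ differences, 6 belonged to genes that were bright in stressed roots, lower in day 11 roots and near background in leaves throughout, the other being that of EXPA8 at -4.63. scpl30 (AT4G15100), a serine carboxypeptidase-like protein, had 3.71, 4.37 and 4.56 in day 11 roots, against 10.03, 10.95 and 9.83 in day 10 roots. Its leaf values were 3.51, 3.61 and 3.65 in day 11 leaves, against 3.95, 4.40 and 4.06 in day 10 leaves. The 2 root groups did not overlap, the root step was -6.06 ± 0.27 (adjusted p = 1.8e-08) and the organ difference -5.51 ± 0.38 (adjusted p = 5.7e-06). AT1G32970, a protease of the subtilase family, had 4.04, 3.43 and 4.49 in day 11 roots, against 9.35, 9.27 and 9.53 in day 10 roots, and its 6 leaf values lay between 3.13 and 3.55. Its organ difference was -5.41 ± 0.31 (adjusted p = 6.6e-07). BGLU24 (AT5G28510), a beta-glucosidase, had 3.87, 5.17 and 3.90 in day 11 roots, against 9.70, 9.36 and 9.28 in day 10 roots, with 2.68 to 2.93 in all 6 leaf arrays. Its organ difference was -5.14 ± 0.38 (adjusted p = 6.8e-06), and the root values of both days were far apart in each of these genes. Mock roots averaged 3.94, 3.53 and 3.15 for the 3 genes in that order, and day 11 roots averaged 4.21, 3.99 and 4.31. In leaves all 3 were near background, and each of these organ differences was limited by it.

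The same form held for AT2G26380, a leucine-rich repeat protein, for AT5G47980, an acyltransferase of the BAHD family, and for AT5G28520, a jacalin-related lectin. AT5G28520 was the one of these that stayed high, at 6.40, 7.80 and 7.33 in day 11 roots, against 10.95, 11.00 and 10.60 in day 10 roots and a mock root mean of 4.11. Its leaf arrays lay between 4.09 and 4.65, and its organ difference was -3.80 ± 0.40 (adjusted p = 9.6e-05). AT5G47980 had 4.88, 4.76 and 4.96 in day 11 roots, against 8.75, 8.63 and 9.14 in day 10 roots, with 3.29 to 3.49 in leaves and an organ difference of -3.87 ± 0.21 (adjusted p = 4.8e-07). AT2G26380 had an organ difference of -4.69 ± 0.27 (adjusted p = 6.6e-07), with day 11 roots averaging 4.33 and day 10 roots 9.18. None of the 3 had overlapping root groups, and in all 3 the leaf groups overlapped.

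Beta-glucosidases, which release the aglycone of glucoside substrates, were mostly lower where they differed. Of the 20 genes with a BGLU symbol, 6 had a lower organ difference, 1 a higher one and 13 did not pass, with a median of -0.34 against -0.02 over all 13355 genes. The shares over all genes were 4.16% lower and 4.34% higher. This family was added after values were seen, so those shares give context and do not test it. The 6 were BGLU24, BGLU32, BGLU40, BGLU45, BGLU46 and BGLU16, and in each of them the root step fell. BGLU40 (AT1G26560) had 4.45, 4.68 and 4.76 in day 11 roots, against 6.48, 7.23 and 6.45 in day 10 roots, whereas its leaf arrays lay between 8.03 and 8.30. That gene was therefore brighter in leaves than in roots on both days, and its organ difference of -2.20 ± 0.27 (adjusted p = 0.00025) was not limited by the background. BGLU32 was at -2.41, BGLU45 at -2.11, BGLU46 at -1.65 and BGLU16 at -1.27, the last with a call lost without day 10 root replicate 2, day 11 leaf replicate 3 or day 11 root replicate 2. BGLU32 and BGLU45 were dim, with no mean of the 4 groups above 6.609, the median of all values. BGLU15 was the one higher member, at 1.27 ± 0.28 (adjusted p = 0.012), with a leaf step of -0.81. BGLU27 did not pass although its root step was -3.49, its organ difference being -2.30 ± 0.72 (adjusted p = 0.062), but it did without day 10 leaf replicate 2 or day 10 root replicate 1 (adjusted p = 0.012 to 0.015). The lower count ranged from 4 to 9 over the alternatives, and BGLU45 and BGLU46 have similar sequences that their probe sets may share. Of 29 serine carboxypeptidase-like genes, 2 were lower and 2 higher, with a median of -0.02. Beside scpl30, scpl28 was at -2.20 ± 0.26 (adjusted p = 0.00023), scpl31 at 2.03 ± 0.54 (adjusted p = 0.032) and SCPL49 at 0.86 ± 0.17 (adjusted p = 0.0064). The call of scpl31 was lost without day 10 leaf replicate 2 or 3, day 10 root replicate 1 or 3, or any day 11 root replicate (adjusted p = 0.052 to 0.078).

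**Figure D3:**
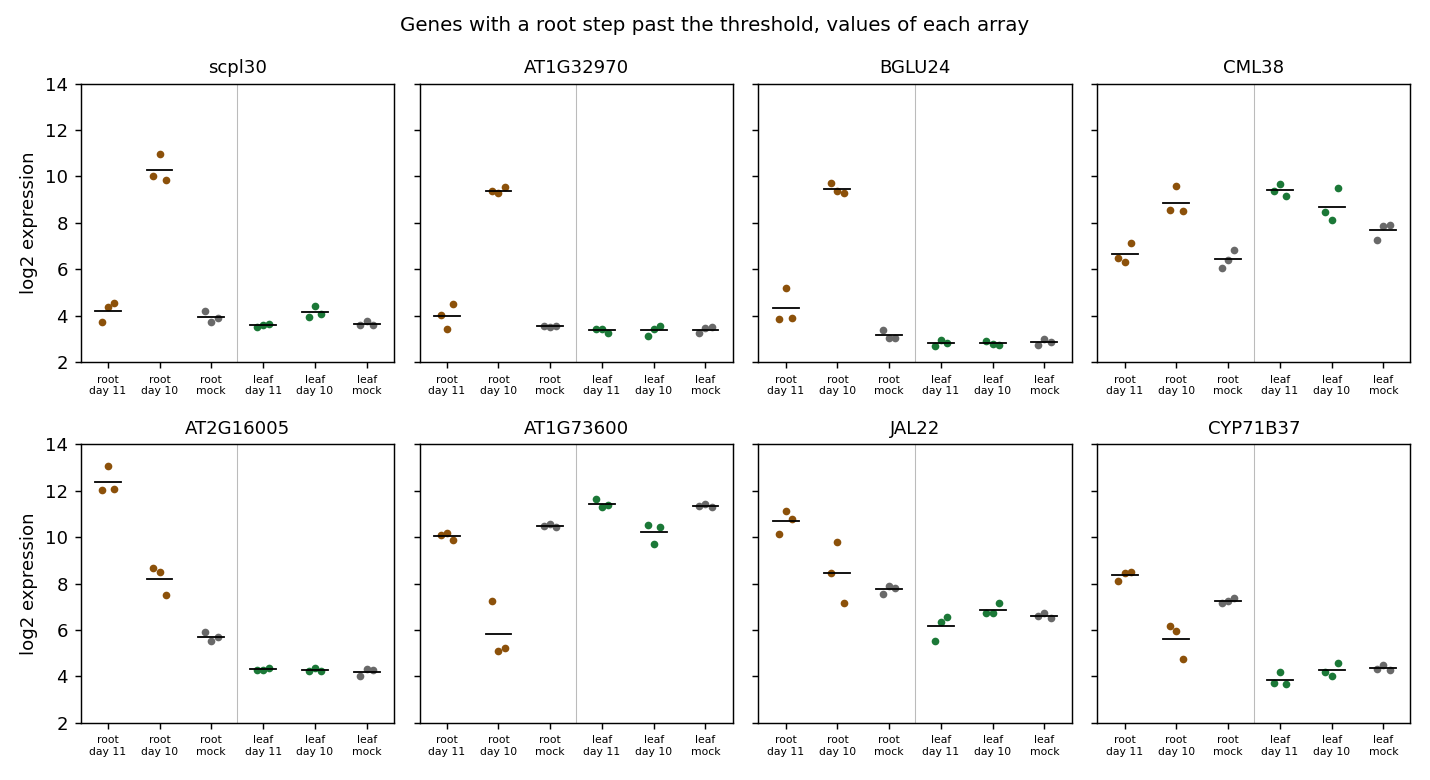
Log2 expression of 8 genes on each array (points) with the group mean (bar), for roots left of the grey line and leaves right of it, with the mock arrays of each organ in grey. For scpl30, AT1G32970 and BGLU24 the day 10 root points stand far above all others, for AT1G73600 and CYP71B37 they lie below the day 11 root points, and the leaf points of day 11 and day 10 overlap or nearly meet in most panels.

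Among genes bright in both organs, the lowest organ differences also came with falls in roots. AT2G37870, of the lipid transfer protein family, had 6.09, 6.83 and 6.08 in day 11 roots, against 10.57, 10.71 and 10.12 in day 10 roots. In leaves it had 8.58, 8.32 and 7.95 in day 11 leaves, against 8.92, 9.80 and 8.73 in day 10 leaves, so that the root arrays fell clear of each other while the leaf step, -0.87 ± 0.28 (adjusted p = 0.055), did not pass. The organ difference was -3.27 ± 0.39 (adjusted p = 0.00025). AT3G16530, a lectin of the legume type, had 5.50, 5.13 and 5.25 in day 11 roots, against 8.60, 10.86 and 10.16 in day 10 roots. Its leaf values were 10.25, 9.73 and 10.09 in day 11 leaves, against 11.39, 12.01 and 10.63 in day 10 leaves, its leaf step -1.32 ± 0.44 (adjusted p = 0.065) and its organ difference -3.25 ± 0.63 (adjusted p = 0.0055). Mock roots averaged 5.10 and mock leaves 9.67, so the transcript was high in leaves without stress too. AT5G19240 was at -2.68 ± 0.36, AR781 (AT2G26530) at -2.63 ± 0.44 and AT4G32800, a transcription factor of the ERF and DREB type, at -2.80 ± 0.39. In all 3 the day 11 roots lay below the day 10 roots without overlap and the leaf groups overlapped, and that of AT4G32800 was limited by the background in leaves.

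Calcium sensors and a zinc finger regulator of stress showed this form. CML38 (AT1G76650), a calmodulin-like protein, had 6.50, 6.30 and 7.11 in day 11 roots, against 8.55, 9.57 and 8.50 in day 10 roots. Leaf arrays stood at 9.35, 9.68 and 9.17 in day 11 leaves, against 8.45, 8.14 and 9.48 in day 10 leaves, where the groups overlapped. The organ difference was -2.95 ± 0.48 (adjusted p = 0.0019), with day 11 roots close to the mock root mean of 6.42 and day 11 leaves above the mock leaf mean of 7.68. Of the 3 measured calmodulin-like genes known as touch-inducible, all 3 fell in roots, where 6.65% of all genes did. For leaves the count was 0, which the 6.26% of all genes rising and 5.68% falling would also give in a list of 3. The list was chosen with earlier results of these data known, so these shares are context and do not test it. CML37 (AT5G42380) had an organ difference of -2.05 ± 0.53 (adjusted p = 0.028) and AT1G76640 one of -1.00 ± 0.33 (adjusted p = 0.078). The call of CML37 was lost without day 10 leaf replicate 1 or 2, day 10 root replicate 2, or day 11 root replicate 1 or 2 (adjusted p = 0.05 to 0.065, the lowest just above the threshold). STZ (AT1G27730), a zinc finger repressor of the stress response, had 8.79, 8.86 and 9.23 in day 11 roots, against 10.05, 10.36 and 10.26 in day 10 roots. Its leaf values, 11.33, 11.84 and 11.40 in day 11 leaves, against 10.87, 11.25 and 11.57 in day 10 leaves, overlapped, and its organ difference was -1.56 ± 0.26 (adjusted p = 0.0024). Of 3 measured stress transcription factors STZ was the one past the threshold, all 3 fell in roots, and WRKY6 fell in both organs with an organ difference of 0.13 ± 0.32 (adjusted p = 0.86).

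Among enzymes of detoxification, tau glutathione transferases moved in roots in both directions. The tau glutathione transferase GSTU25 (AT1G17180) had 6.48, 5.59 and 6.15 in day 11 roots, against 7.67, 8.03 and 8.13 in day 10 roots, with an organ difference of -2.38 ± 0.47 (adjusted p = 0.0061). GSTU22 was at -1.48 ± 0.20 and GSTU26 at -1.40 ± 0.22, both with a fall in roots, and all 3 were limited by the background in leaves. GSTU20 (AT1G78370) went the other way, with 9.59, 9.58 and 9.67 in day 11 roots, against 7.95, 7.85 and 8.06 in day 10 roots. Its leaf values were 11.45, 12.01 and 11.43 in day 11 leaves, against 11.88, 11.50 and 11.98 in day 10 leaves, which overlapped, and its organ difference was 1.82 ± 0.22 (adjusted p = 0.00029). Thus 3 of 11 tau transferases were lower and 1 higher, beside 4.16% and 4.34% of all genes, with a median of 0.27. Without day 10 leaf replicate 3 or day 10 root replicate 1, 2 of them were higher. UGT78D1 (AT1G30530), a flavonol glycosyltransferase, had 4.09, 4.31 and 4.15 in day 11 roots, against 6.46, 6.24 and 6.03 in day 10 roots, while its leaf arrays lay between 7.79 and 8.77. It was at -2.36 ± 0.30 (adjusted p = 0.00038). Of 43 family 1 glycosyltransferases, 2 were lower and 2 higher, a share like the 4.16% and 4.34% of all genes. The 2 higher ones, UF3GT and UGT85A5, had a fall in leaves and no root step past the threshold. The lower count was 4 without day 10 root replicate 1, and 1 without any 1 of 8 arrays, all but that one, day 10 leaf replicates 2 and 3 and day 11 leaf replicate 2.

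Other falls in roots concerned peroxidases and regulators of lateral root formation. AT5G66390 had 9.40, 9.33 and 9.11 in day 11 roots, against 11.10, 10.96 and 11.17 in day 10 roots and an organ difference of -1.55 ± 0.22 (adjusted p = 0.00067). AT2G41480 had an organ difference of -1.57 ± 0.30 (adjusted p = 0.005). Both are class III peroxidases, enzymes of the wall, and both were dim in leaves, so that the differences were limited by the background. They were the 2 past the threshold of 9 peroxidases found by their annotated names, beside 8.49% of all genes. Another 1 was higher without day 10 leaf replicate 3, day 10 root replicate 1 or 2, or day 11 leaf replicate 2. LBD16 and LBD29, transcription factors that act downstream of auxin in lateral root initiation, were at -1.20 ± 0.25 (adjusted p = 0.008) and -1.02 ± 0.23 (adjusted p = 0.013). Their roots averaged 6.32 and 5.24 on day 11 and 7.28 and 6.15 on day 10, while leaves stayed between 3.97 and 4.82, so that both differences were limited by the background. These 2 were the lower ones of 7 auxin response genes, whose median was -0.85, with no member higher. Over all genes 4.16% were lower and 4.34% higher.

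The 4 highest organ differences came with rises in roots. AT2G16005, of the MD-2-related lipid recognition family, had 12.04, 13.06 and 12.06 in day 11 roots, against 8.65, 8.48 and 7.49 in day 10 roots. Its leaf arrays lay between 4.21 and 4.36 and its mock root mean was 5.70, so that day 11 roots stood above both the stressed and the mock roots. The root step was 4.18 ± 0.29 (adjusted p = 6.1e-07) and the organ difference 4.15 ± 0.41 (adjusted p = 7e-05). AT1G07690 and AT2G38600, an acid phosphatase of the HAD family, had a different course. AT1G07690 had 9.28, 8.89 and 9.04 in day 11 roots, against 5.32, 4.93 and 5.64 in day 10 roots, with a mock root mean of 9.44. AT2G38600 had 8.56, 8.13 and 8.61 in day 11 roots, against 4.77, 5.21 and 5.03 in day 10 roots, with a mock root mean of 8.40. Day 11 roots lay near the mock level in both, and the organ differences were 3.62 ± 0.28 (adjusted p = 1e-05) and 3.56 ± 0.25 (adjusted p = 5.7e-06). In leaves both genes were near background, with overlapping groups.

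Some rises started from day 10 roots that differed widely among themselves. AT4G14060, of the Bet v 1 family, had 9.19, 10.04 and 10.10 in day 11 roots, against 6.87, 8.30 and 4.49 in day 10 roots. Its organ difference was 3.34 ± 0.90 (adjusted p = 0.033), and the call was lost without any 1 of 8 of the 12 arrays, namely the 6 leaf arrays and day 11 root replicates 2 and 3 (adjusted p = 0.056 to 0.08). AT2G33850 had 8.91, 9.52 and 9.58 in day 11 roots, against 6.43, 7.58 and 4.80 in day 10 roots, with leaves between 8.86 and 9.94. Its organ difference was 3.61 ± 0.69 (adjusted p = 0.0052). AT3G45160 was at 2.95 ± 0.75 (adjusted p = 0.026), and its call was lost without day 10 leaf replicate 3 or day 11 root replicate 2 or 3 (adjusted p = 0.055 to 0.066). In all 3 genes day 10 root replicate 3 was the lowest of the root arrays. The jacalin-related lectin JAL22 (AT2G39310) also had its lowest root value in that array, with 10.12, 11.13 and 10.79 in day 11 roots, against 8.46, 9.78 and 7.14 in day 10 roots. Its leaf values were 5.54, 6.36 and 6.54 in day 11 leaves, against 6.74, 6.73 and 7.16 in day 10 leaves, and its organ difference was 2.95 ± 0.69 (adjusted p = 0.017). Without day 10 leaf replicate 1 all 4 genes with a JAL symbol were higher. With all 12 arrays 2 of the 4 were higher and 0 lower, beside 4.34% and 4.16% of all genes. The other was JAL23 at 1.60 ± 0.42 (adjusted p = 0.029), by a leaf step of -1.55, whose call was lost without day 10 leaf replicate 2 or 3, day 10 root replicate 3, day 11 leaf replicate 1 or 3, or day 11 root replicate 2 or 3 (adjusted p = 0.055 to 0.075).

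AT1G73600, a phosphoethanolamine methyltransferase of phosphocholine synthesis, had 10.10, 10.16 and 9.88 in day 11 roots, against 7.23, 5.09 and 5.20 in day 10 roots. In leaves it had 11.65, 11.28 and 11.40 in day 11 leaves, against 10.51, 9.70 and 10.45 in day 10 leaves. The root groups stood far apart and the leaf groups did not overlap either, but the leaf step of 1.22 ± 0.42 (adjusted p = 0.07) did not pass. The organ difference was 2.98 ± 0.59 (adjusted p = 0.0064), and the mock means of 10.50 in roots and 11.36 in leaves show that both organs were near the mock level on day 11. Its relative PMEAMT had an organ difference of -0.18 ± 0.18 (adjusted p = 0.64). The legume-type lectin AT1G53070 had 8.33, 9.15 and 8.59 in day 11 roots, against 6.82, 6.54 and 6.35 in day 10 roots and an organ difference of 2.82 ± 0.42 (adjusted p = 0.0011). CYP71B37 (AT3G26330), a cytochrome P450, had 8.09, 8.44 and 8.51 in day 11 roots, against 6.16, 5.95 and 4.76 in day 10 roots, with leaves between 3.67 and 4.57. Its organ difference was 3.12 ± 0.43 (adjusted p = 0.00062), while its neighbour by number CYP71B36 (AT3G26320) was lower, at -1.95 ± 0.33 (adjusted p = 0.0025), through a rise in leaves to 6.87, 5.86 and 6.24 on day 11, against 4.51, 4.59 and 4.17 on day 10. The 24 cytochrome P450 genes measured were those found by their annotated names, most of them CYP71B genes, and do not stand for the whole class. CYP71B37 and CYP71B36 were the 2 of them past the threshold, a share like the 8.49% of all genes. Higher members were 3 without day 11 leaf replicate 1 and 4 with array weights, and 2 without any 1 of 5 other arrays, day 10 leaf replicate 3, the day 10 root replicates and day 11 root replicate 1.

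Falls in leaves gave another set of higher organ differences. EXPA16 (AT3G55500), an expansin, had 5.33, 5.34 and 5.03 in day 11 leaves, against 8.09, 9.11 and 8.79 in day 10 leaves. Its root arrays lay between 4.19 and 4.74, and the organ difference was 3.40 ± 0.34 (adjusted p = 7.7e-05). AT2G41190, of an amino acid transporter family, had 7.39, 7.44 and 7.07 in day 11 leaves, against 10.50, 11.13 and 10.46 in day 10 leaves. In roots it had 6.64, 6.78 and 6.25 in day 11 roots, against 7.02, 7.19 and 6.46 in day 10 roots, which overlapped. The leaf step was -3.40 ± 0.22 (adjusted p = 2e-06) and the organ difference 3.07 ± 0.31 (adjusted p = 8.1e-05), and the mock means were 6.36 in roots and 7.62 in leaves. AT4G02360 was at 2.80 ± 0.60, AT3G28270 at 2.74 ± 0.42 and AT3G13672 at 2.49 ± 0.28, all with falling leaves and overlapping root arrays. SWEET4 (AT3G28007), a sugar transporter of the plasma membrane, had 5.95, 6.42 and 6.16 in day 11 leaves, against 8.60, 9.08 and 8.68 in day 10 leaves. Roots stayed between 3.98 and 4.54, and its organ difference was 2.46 ± 0.26 (adjusted p = 0.00011). All 6 of these differences were limited by the background in roots.

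Protective proteins of dehydration fell in leaves, and most of them in roots as well. The list of 9 measured dehydration and LEA genes was chosen with earlier results of these data known, so its counts are description only. Of the 9, 8 fell in leaves (5.68% of all genes did) and 5 in roots (6.65% of all genes). A higher organ difference held for 2 (4.34% of all genes) and a lower one for 0 (4.16%), with a median of 0.39. The 2 were COR15A and COR15B, which protect chloroplasts in the cold. COR15A (AT2G42540) had 10.62, 10.64 and 10.41 in day 11 leaves, against 12.63, 12.53 and 12.92 in day 10 leaves, and COR15B (AT2G42530) had 10.33, 10.44 and 10.42 in day 11 leaves, against 12.39, 11.75 and 12.74 in day 10 leaves. In roots both lay between 4.04 and 4.76 on the 12 values of both days. The organ differences were 2.04 ± 0.25 (adjusted p = 0.00026) and 2.05 ± 0.28 (adjusted p = 0.00066), both limited by the background in roots, and the neighbouring genes are alike in sequence, so their probe sets may read each other. The members that were bright in stressed roots fell in both organs. AT3G02480 had a root step of -4.03 and a leaf step of -3.90, and its organ difference was -0.13 ± 0.58 (adjusted p = 0.93). LTI30, a dehydrin, had -2.23 in roots and -2.68 in leaves, with an organ difference of 0.46 ± 0.36 (adjusted p = 0.51). LEA4-5 (AT5G06760) had 4.64, 4.83 and 4.99 in day 11 roots, against 9.45, 9.41 and 8.99 in day 10 roots. The leaf arrays gave 5.09, 4.97 and 4.98 in day 11 leaves, against 8.30, 8.99 and 7.87 in day 10 leaves, and its organ difference of -1.09 ± 0.33 (adjusted p = 0.053) just missed the threshold, its adjusted p ranging from 0.0058 to 0.12 over the alternatives. XERICO (AT2G04240), a RING protein linked to ABA accumulation, had 8.25, 8.11 and 8.32 in day 11 leaves, against 9.46, 9.36 and 9.42 in day 10 leaves. Its root arrays lay between 9.16 and 9.61 with overlapping groups, and its organ difference was 1.21 ± 0.17 (adjusted p = 0.00074).

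Anthocyanin genes were higher by the same route. The 6 measured flavonoid and anthocyanin genes were also a list chosen with earlier results of these data known. Of them, 4 had a higher organ difference (4.34% of all genes did) and 0 a lower one (4.16%). In leaves 5 fell (5.68% of all genes), and in roots 0 passed (7.52% rose and 6.65% fell over all genes), with a median organ difference of 1.36. DFR (AT5G42800), the dihydroflavonol reductase, had 6.62, 6.65 and 5.52 in day 11 leaves, against 8.57, 8.99 and 8.91 in day 10 leaves. Its roots lay between 3.56 and 4.03, and its organ difference was 2.39 ± 0.36 (adjusted p = 0.0011). The glycosyltransferases UF3GT and AT4G14090, which decorate anthocyanins, were at 1.80 ± 0.33 (adjusted p = 0.0038) and 1.79 ± 0.35 (adjusted p = 0.0057), and the malonyltransferase AT5MAT was at 0.94 ± 0.27 (adjusted p = 0.049), a call lost without any 1 of 10 arrays, all but day 10 root replicate 2 and day 11 leaf replicate 2. The first 3 were limited by the background in roots. UGT78D2 did not pass, at 0.25 ± 0.23 (adjusted p = 0.59). DFR, UF3GT and AT4G14090 averaged 8.18, 7.60 and 7.52 in mock leaves and 6.27, 6.91 and 6.52 in day 11 leaves, so day 11 leaves were on average below the mock level. UGT85A5, another glycosyltransferase, was at 1.61 ± 0.28 (adjusted p = 0.0031) with a leaf step of -1.56.

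**Figure D4:**
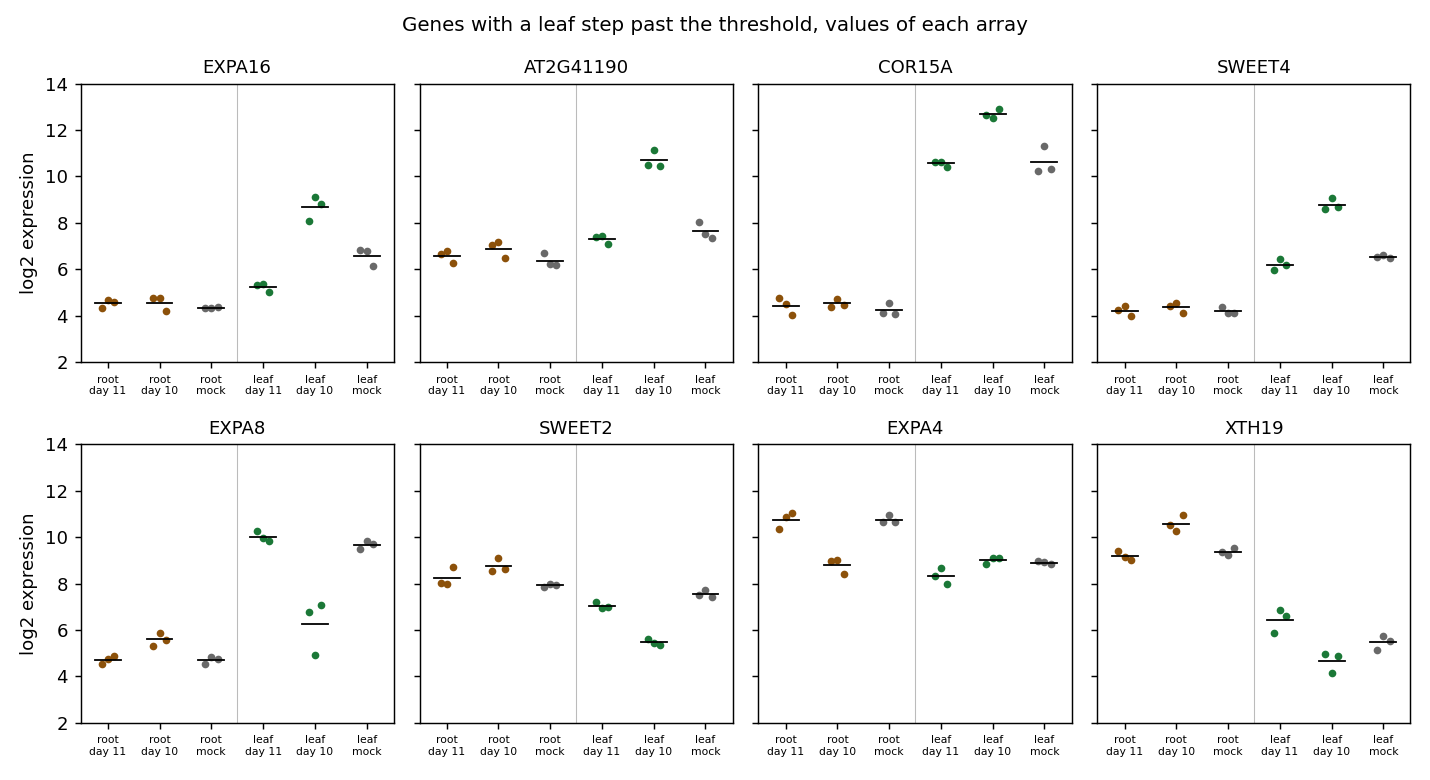
Log2 expression of 8 genes with a leaf step past the threshold on each array (points) with the group mean (bar), for roots left of the grey line and leaves right of it, with the mock arrays in grey. EXPA16, AT2G41190, COR15A and SWEET4 are lower in day 11 than in day 10 leaves, EXPA8 and SWEET2 are higher, and EXPA4 and XTH19 move in opposite directions in roots and leaves.

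Rises in leaves gave lower organ differences. EXPA8 (AT2G40610), an expansin, had 10.25, 9.95 and 9.83 in day 11 leaves, against 6.75, 4.93 and 7.07 in day 10 leaves. In roots it had 4.54, 4.73 and 4.87 in day 11 roots, against 5.30, 5.88 and 5.58 in day 10 roots. The leaf step was 3.76 ± 0.40 (adjusted p = 6.4e-05), the root groups did not overlap although their step of -0.87 ± 0.40 (adjusted p = 0.18) did not pass, and the organ difference was -4.63 ± 0.56 (adjusted p = 0.00026). Day 11 leaves lay near the mock leaf mean of 9.67. AT2G10940, a proline-rich protein related to lipid transfer proteins, had 11.80, 11.51 and 11.74 in day 11 leaves, against 9.45, 8.16 and 9.20 in day 10 leaves. Its roots stayed between 4.77 and 5.01, and the organ difference was -2.68 ± 0.35 (adjusted p = 0.0004). AT5G44020, an acid phosphatase of the HAD family, was high in roots on both days, 11.12, 10.81 and 11.01 on day 11 and 10.64, 10.17 and 10.58 on day 10. Its leaves had 9.91, 9.86 and 10.48 in day 11 leaves, against 7.29, 6.54 and 7.85 in day 10 leaves, and its organ difference was -2.33 ± 0.37 (adjusted p = 0.0017). In each of these 3 genes the day 11 leaves lay wholly above the day 10 leaves.

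SWEET2 (AT3G14770), a vacuolar sugar transporter, had 7.20, 6.94 and 6.97 in day 11 leaves, against 5.60, 5.43 and 5.35 in day 10 leaves. Its root values, 8.01, 7.99 and 8.71 in day 11 roots, against 8.53, 9.09 and 8.62 in day 10 roots, overlapped, and its organ difference of -2.08 ± 0.28 (adjusted p = 0.00056) ran opposite to that of SWEET4. The 2 genes were the members past the threshold among 15 SWEET genes, beside 8.49% of all genes. There were 2 higher members without day 10 leaf replicate 3 and 2 lower ones without day 11 leaf replicate 2. BZIP61 (AT3G58120), a bZIP transcription factor, was at -2.25 ± 0.60 (adjusted p = 0.031). Its call was lost without any 1 of 8 arrays, namely day 10 leaf replicates 1 and 2, day 11 leaf replicate 3, day 10 root replicates 1 and 3 and all day 11 root replicates (adjusted p = 0.051 to 0.074). AT1G79770 was at -2.31 ± 0.19 and AT4G18970, a GDSL lipase, at -2.20 ± 0.28. A-type response regulators are early targets and inhibitors of cytokinin signalling. Of the 10 listed, 2 were measured and both were lower, where 4.16% of all genes were. This list was chosen with earlier results of these data known, so the count is description only. RR16 (AT2G40670) had 8.21, 7.38 and 7.42 in day 11 leaves, against 5.49, 5.36 and 5.97 in day 10 leaves, with roots between 3.82 and 4.61 and an organ difference of -1.58 ± 0.32 (adjusted p = 0.0078). ARR15 (AT1G74890) was at -1.23 ± 0.30 (adjusted p = 0.019), with a leaf step of 1.00. NRPA1 (AT3G57660), the large subunit of RNA polymerase I, which makes ribosomal RNA, had 6.97, 6.91 and 6.93 in day 11 leaves, against 6.30, 5.88 and 5.83 in day 10 leaves. Its roots lay between 6.53 and 6.94, and its organ difference was -0.96 ± 0.22 (adjusted p = 0.015).

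Genes with opposite steps in the 2 organs parted in some cases and drew together in others. EXPA4 (AT2G39700), an expansin, had 10.36, 10.85 and 11.03 in day 11 roots, against 8.99, 9.00 and 8.40 in day 10 roots. In leaves it had 8.32, 8.66 and 7.98 in day 11 leaves, against 8.84, 9.11 and 9.12 in day 10 leaves. Neither organ's groups overlapped, the root step was 1.95 ± 0.21 (adjusted p = 2.5e-05), the leaf step -0.71 ± 0.21 (adjusted p = 0.041) and the organ difference 2.66 ± 0.30 (adjusted p = 0.00015). XTH19 (AT4G30290), a xyloglucan endotransglucosylase/hydrolase, was the reverse, with 9.41, 9.15 and 9.00 in day 11 roots, against 10.53, 10.25 and 10.94 in day 10 roots. Leaf arrays stood at 5.88, 6.86 and 6.58 in day 11 leaves, against 4.95, 4.15 and 4.89 in day 10 leaves. Again neither organ's groups overlapped, and the organ difference was -3.17 ± 0.37 (adjusted p = 0.00022). The root minus leaf gap of EXPA4 was 2.43 on day 11 and -0.23 on day 10, whereas that of XTH19 shrank to 2.75 on day 11, against 5.91 on day 10.

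The other higher genes with opposite steps were AT3G02120 at 2.29 ± 0.31, AT3G02640 at 2.22 ± 0.38, the RING protein AT1G14260 at 2.16 ± 0.22 and AT1G68470, of the exostosin family of glycosyltransferases, at 1.95 ± 0.34. AT3G02120 had 7.77, 8.01 and 7.89 in day 11 roots, against 6.87, 6.57 and 6.62 in day 10 roots. In leaves it had 5.32, 6.46 and 5.78 in day 11 leaves, against 6.89, 7.01 and 6.93 in day 10 leaves, without overlap in either organ. The other lower ones were AT3G61400, a 2-oxoglutarate-dependent oxygenase, at -2.53 ± 0.28, AT5G14730 at -2.03 ± 0.32, the aspartyl protease AT1G66180 at -1.90 ± 0.26 and the pectate lyase AT5G48900 at -1.88 ± 0.27. AT5G48900, an enzyme that cleaves wall pectin, had 8.50, 8.38 and 8.50 in day 11 roots, against 9.52, 9.31 and 9.41 in day 10 roots. The leaf arrays gave 8.62, 8.96 and 9.16 in day 11 leaves, against 8.20, 7.46 and 8.29 in day 10 leaves, again without overlap. ALDH6B2, an aldehyde dehydrogenase of valine breakdown, had smaller opposite steps of 0.53 in roots and -0.34 in leaves, with an organ difference of 0.86 ± 0.15 (adjusted p = 0.0026). ALDH10A8 was at 0.64 ± 0.18 (adjusted p = 0.045), a call lost without any 1 of 9 arrays (adjusted p = 0.075 to 0.1), namely all but day 10 leaf replicate 2, day 10 root replicate 1 and day 11 leaf replicate 2. The count of opposite probe sets, 106, ranged from 55 to 112 when arrays were left out, with 55 without day 10 root replicate 3, 59 without day 11 root replicate 2, 60 without day 10 leaf replicate 2, 66 without day 11 leaf replicate 3 and 70 without day 11 root replicate 1.

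Some genes of cell division had higher organ differences. The 5 measured cell cycle genes too were a list chosen with earlier results of these data known. Of them, 3 had a higher organ difference (4.34% of all genes did) and 0 a lower one, with a median of 0.95. In roots 2 rose (7.52% of all genes), in leaves 2 fell (5.68%), and none of the 5 did both. The 3 with a higher organ difference stayed past the threshold under every alternative. The Aurora kinases, which act on chromosomes in mitosis, were AUR2 at 1.29 ± 0.25 (adjusted p = 0.0061), AUR1 at 1.17 ± 0.26 (adjusted p = 0.013) and AUR3 at 0.76 ± 0.30 (adjusted p = 0.15). AUR2 (AT2G25880) had 8.17, 7.89 and 7.98 in day 11 roots, against 7.69, 7.69 and 7.76 in day 10 roots. In leaves it had 6.04, 6.86 and 6.41 in day 11 leaves, against 7.62, 7.36 and 7.29 in day 10 leaves. The leaf groups did not overlap and the root groups did not either, though the root step of 0.30 ± 0.18 (adjusted p = 0.32) did not pass. HTB1 (AT1G07790), a histone H2B, had 9.77, 9.94 and 9.56 in day 11 roots, against 8.84, 8.43 and 8.51 in day 10 roots, and its organ difference was 0.95 ± 0.20 (adjusted p = 0.01) with overlapping leaf groups. Of the other 5 histone genes, found by their annotated names, 2 rose in roots (7.52% of all genes did) and 0 passed in leaves. No organ difference passed among them. That count was 2 higher with all 18 arrays in the fit or with array weights, and 1 without day 10 or day 11 leaf replicate 2.

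Where both organs fell, the organ difference measured which fell further. COR27 (AT5G42900), a cold-regulated gene tied to the clock and light signalling, had 4.18, 4.62 and 4.83 in day 11 roots, against 7.19, 7.51 and 7.22 in day 10 roots. Its leaf values were 3.96, 4.21 and 4.25 in day 11 leaves, against 8.20, 7.64 and 8.51 in day 10 leaves. Both organs went down to near the background, the leaf step was -3.98 ± 0.22 (adjusted p = 5.6e-07), the root step -2.76 ± 0.22 (adjusted p = 2.4e-06) and the organ difference 1.22 ± 0.31 (adjusted p = 0.027). AT4G33980, its relative, had a root step of -1.42 and a leaf step of -3.10, with an organ difference of 1.67 ± 0.45 (adjusted p = 0.033). Both calls were limited by the background in roots and depended on single arrays. That of COR27 was lost without replicate 1 or 3 of day 10 leaves or day 10 roots, day 11 leaf replicate 1, or day 11 root replicate 2 or 3 (adjusted p = 0.054 to 0.072). That of AT4G33980 was kept only without day 10 leaf replicate 2, day 11 leaf replicate 3 or day 11 root replicate 1, and lost without each of the other 9 arrays (adjusted p = 0.051 to 0.084). The third measured clock gene, GI, was at 0.50 ± 0.22 (adjusted p = 0.19).

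PUB19 (AT1G60190), a U-box ubiquitin ligase of ABA and drought responses, had 6.37, 6.69 and 6.28 in day 11 roots, against 8.08, 7.89 and 7.65 in day 10 roots. In leaves it had 7.26, 7.22 and 6.41 in day 11 leaves, against 9.33, 10.07 and 9.57 in day 10 leaves, and its organ difference was 1.27 ± 0.33 (adjusted p = 0.029). That call was lost without day 10 leaf replicate 2, day 10 root replicate 2 or 3, day 11 leaf replicate 3 or day 11 root replicate 2 (adjusted p = 0.052 to 0.077). Other enzymes of the drought-linked ubiquitin list went the other way. PUB23 was at -1.83 ± 0.43 (adjusted p = 0.016), with a root step of -1.06, and PUB22 at -1.42 ± 0.34 (adjusted p = 0.019), with a leaf step of 1.17. PUB22 lost its call without day 11 root replicate 3 (adjusted p = 0.052). UBC32 was higher, at 0.78 ± 0.20 (adjusted p = 0.027), with both organs falling, a call lost without day 10 root replicate 1 or 3, day 11 leaf replicate 2, or day 11 root replicate 2 or 3 (adjusted p = 0.054 to 0.071). PUB22 and PUB23 are close relatives whose probe sets may share signal. In all 2 of the 5 were higher and 2 lower, beside 4.34% and 4.16% of all genes. But 0 were higher without day 10 root replicate 3 or day 11 root replicate 2.

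A further 3 falls were deeper in roots. AT5G19110, an aspartyl protease, had 8.06, 8.12 and 7.90 in day 11 roots, against 11.56, 11.45 and 11.31 in day 10 roots. The leaf arrays gave 5.49, 6.05 and 6.06 in day 11 leaves, against 6.14, 6.99 and 6.88 in day 10 leaves, and its organ difference was -2.61 ± 0.29 (adjusted p = 0.00015). AT3G17110 was at -2.21 ± 0.32, with a root step of -3.51 and a leaf step of -1.30. AT5G52760, of the heavy metal-associated family, was at -2.30 ± 0.30, its day 11 roots averaging 3.82 and its day 10 roots 6.97. Rises of both organs were fewer. AT1G33340, an adaptor protein of the ENTH and ANTH family, had 7.09, 7.68 and 7.61 in day 11 roots, against 4.72, 4.42 and 4.67 in day 10 roots. Leaf arrays stood at 6.94, 7.00 and 7.18 in day 11 leaves, against 6.38, 5.69 and 5.94 in day 10 leaves, and its organ difference was 1.82 ± 0.28 (adjusted p = 0.0014). AT2G45180, of the lipid transfer protein family, rose by a root step of 3.16 and a leaf step of 1.83, with an organ difference of 1.33 ± 0.38 (adjusted p = 0.042). That call was lost without day 10 leaf replicate 1 or 3, any day 11 leaf or day 11 root replicate, and without the mean-variance trend (adjusted p = 0.055 to 0.089).

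Within the wall-loosening family the members scattered in both directions. The family was defined by symbol and added after values were seen, so shares over all genes give context and do not test it. Its median was -0.04 and its range ran from -4.63 to 3.40. Of the 27 genes with an expansin or XTH symbol, 5 had a higher organ difference (4.34% of all genes did) and 3 a lower one (4.16%). Beside EXPA16, EXPA4, EXPA8 and XTH19, these were EXPB3 at 2.32 ± 0.48 (adjusted p = 0.0086), EXPA15 at 1.37 ± 0.32 (adjusted p = 0.018) and XTH21 at 1.27 ± 0.22 (adjusted p = 0.0032), all 3 with a rise in roots, and EXLA3 at -1.88 ± 0.52 (adjusted p = 0.037). EXPA15 lost its call without day 11 root replicate 2, and EXLA3 without any 1 of 10 arrays, all but day 11 leaf replicate 1 and day 11 root replicate 3. The root hair expansins EXPA7 and EXPA18 did not pass, at -0.65 ± 0.23 and 0.23 ± 0.27. XTH16 rose in both organs, by 1.19 in roots and 1.10 in leaves, with an organ difference of 0.08 ± 0.35 (adjusted p = 0.93). XTH18 did not pass, at -1.51 ± 0.79 (adjusted p = 0.28), but its adjusted p was 0.0039 without day 11 leaf replicate 1, and without that array 6 members of the family were lower. Of 22 TBL genes, which acetylate wall polysaccharides, 3 were higher and 1 lower, beside 4.34% and 4.16% of all genes. The higher ones were TBL34 at 1.02 ± 0.29 (adjusted p = 0.041), TBL36 at 1.93 ± 0.53 (adjusted p = 0.037) and TBL26 at 1.78 ± 0.41 (adjusted p = 0.016), and the lower one TBL41 at -1.05. TBL26 was the only higher member without day 10 leaf replicate 1 or 3, day 10 root replicate 3, or day 11 root replicate 1 or 3, and lower members were 2 without day 10 root replicate 3 or day 11 leaf replicate 1.

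Some further lists had few or no organ differences, and for the short ones the 8.49% of all genes would give less than 1 member, so a count of 0 says nothing particular about them. Of 10 autophagy genes, 5 fell in leaves (5.68% of all genes did) and 0 passed in roots (7.52% of all genes rose and 6.65% fell). No organ difference of theirs passed, the largest being ATG8H at 0.83 ± 0.33 (adjusted p = 0.14). Without day 10 leaf replicate 1 there were 2 higher members. Of 8 nuclear photosynthesis genes 0 passed, with CaS at -0.91 ± 0.38 (adjusted p = 0.18), and the list's median was -0.23. A single member was lower without day 10 leaf replicate 1. Of 69 genes of the plastid chromosome, 8 rose in roots and 7 in leaves, beside 7.52% and 6.26% of all genes. In either organ 0 fell, beside 6.65% of all genes in roots and 5.68% in leaves. The test of the organ difference was passed by 3, beside 8.49% of all genes. These were rpl22 at 0.83 ± 0.22 (adjusted p = 0.029), rpl36 at 0.66 ± 0.17 (adjusted p = 0.026) and petL at -0.95 ± 0.22 (adjusted p = 0.016). The calls of rpl22 and rpl36 were both lost without any 1 of 7 arrays, namely day 10 leaf replicates 2 and 3, day 10 root replicate 3, day 11 leaf replicates 1 and 3 and day 11 root replicates 1 and 2 (adjusted p = 0.051 to 0.077). Lower members were 6 without day 10 leaf replicate 3 and 2 without day 11 leaf replicate 2. Of 7 genes with an IAA symbol, repressors of auxin signalling, 0 passed, and 1 was lower without day 10 leaf replicate 3. For autophagy, photosynthesis and IAA genes these are counts of tests not passed, and they do not show equal steps in both organs.

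**Figure D5:**
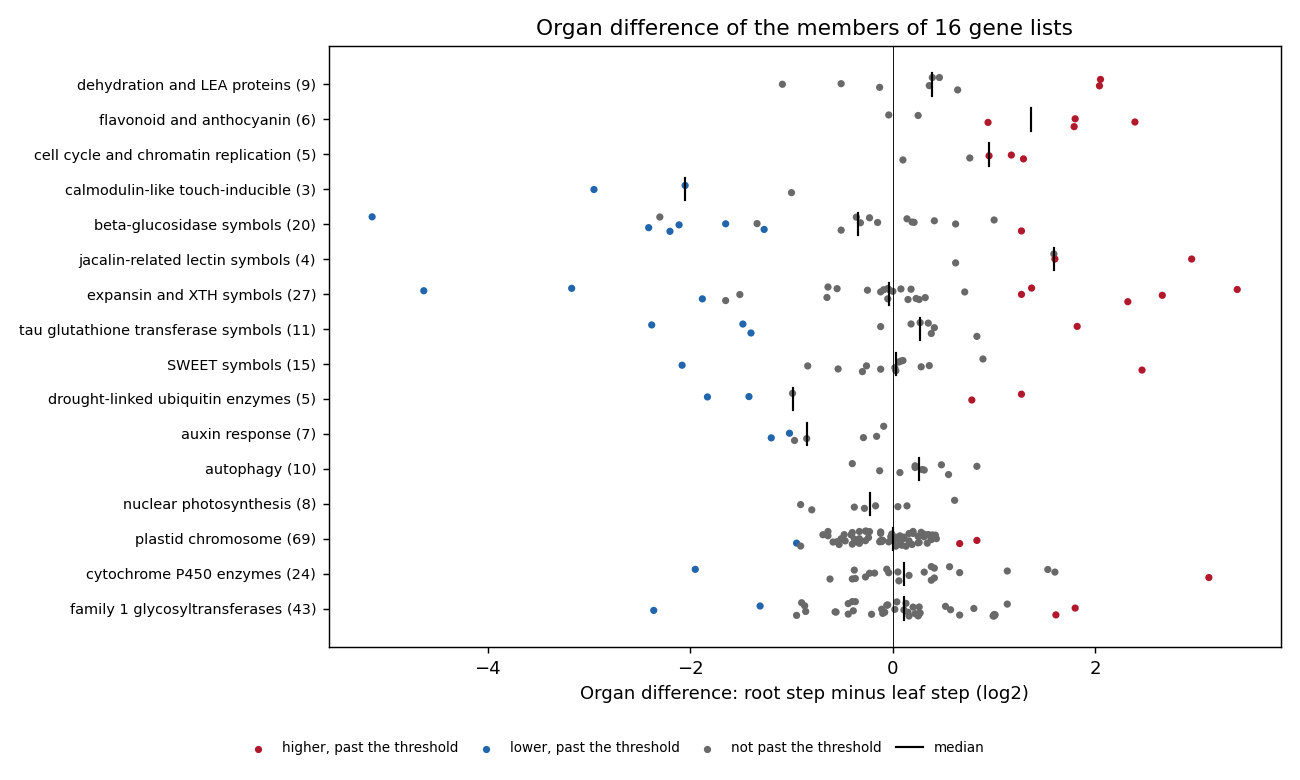
Organ difference on the log2 scale of each measured member of 16 gene lists, 1 row for each list with its number of members, with the median as a bar. Red and blue points passed the threshold; the flavonoid, cell cycle and jacalin lectin rows have no blue point, the touch-inducible calmodulin-like and auxin rows have no red one, and the expansin and XTH row runs from -4.63 to 3.40.

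The organ difference equals the change of the root minus leaf gap between the days, so it was also read as levels. Over the 2094 probe sets the median size of the gap was 1.40 on day 11 and 1.17 on day 10, against 0.47 and 0.43 over all 22746 probe sets. As the 2094 were chosen by the change of this gap, their larger gap is in part built in and no separate result. The gap was smaller on day 11 in 886 (42.3%), against 10242 of all probe sets (45%). It changed sign, so that the organ with the higher signal was another, in 519 of the 2094, beside 4086 of all 22746 probe sets. The higher and the lower differences were unlike in how the gap changed. Roots lay above leaves on day 10 in 52.4% of the higher and 64.8% of the lower ones, beside 54.2% of all probe sets. A positive organ difference widens the gap where roots lie above leaves and a negative one narrows it, so this contrast is in part built in. Among the 1042 higher ones the median gap was 1.52 on day 11 and 0.93 on day 10, and it was smaller on day 11 in 319 (30.6%). Among the 1052 lower ones it was 1.19 on day 11 and 1.33 on day 10, and it was smaller on day 11 in 567 (53.9%). CML38 gives an example of a changed sign, with day 11 means of 6.63 in roots and 9.40 in leaves and day 10 means of 8.88 and 8.69. AT2G33850 shows the opposite course, with day 11 means of 9.34 in roots and 9.18 in leaves and day 10 means of 6.27 and 9.73, so that its organs were close on day 11.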

How the data were processed

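Total RNA of whole roots and leaves was hybridised to ATH1 arrays, per the labels' protocols. The authors deposited 1 table of log2 expression values for 18 arrays and 22810 probe sets. The method of summarising and normalising is not given in the sources used here, and the range of 2.38 to 13.9 is the basis for taking them as log2. They were used as deposited. The platform annotation pairs 13513 probe sets with 1 gene, 503 with several and 8730 with none, and 13436 of the first matched the RefSeq gene table, so counts cover all probe sets while named genes come from 13355 genes, each by its brightest probe set. Probe sets can bind near-identical transcripts. No genome or sequence table was used here, so no sequence or position is given.

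The 12 arrays were fitted as 4 group means with limma 3.58.1 in R 4.3.3 (eBayes with a mean-variance trend), after a test on simulated data. Organ difference and both steps were contrasts of this fit, each value is given ± SE with n = 3 arrays a group, and Benjamini-Hochberg adjustment of p-values ran over 22746 probe sets, with 0.05 as threshold. With 3 arrays a group the number of arrays limits the precision. The members and lists were chosen with earlier results of these data known. Named genes were the 6 largest organ differences in each direction among called genes of at least 2-fold whose brightest group mean exceeded 6.609 (the median of all values), the 6 largest where this held in each organ, the 5 largest with opposite steps, and from each list of at least 3 measured members the 3 largest called and 1 other, and all members of smaller lists. The 6 largest with only the leaf step past the threshold, the 3 largest of equal direction, and the families defined by symbol or by the plastid chromosome were added after values were seen, as were single list members named beside a count of at most 5. Lists are described by counts and medians, with no test. Alternatives were all 18 arrays, no trend, centred arrays, quantile normalisation, dim probe sets left out, array weights, replicate blocks, each organ alone and each array left out.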

Additional observations from a re-analysis of the deposited data

Results flagged for a closer look

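Each result given here drew attention because the same step, day 11 minus day 10, differed between roots and leaves by the test of that difference in the limma fit. That held for 2094 probe sets and for 87 of the 114 genes named by the rules. Groups of 3 arrays are too small for a search for single outlying arrays, so none was made. Values are organ differences on the log2 scale, root step minus leaf step, and no explanation of them was tested.

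With a fall in roots and a leaf step that did not pass, the organ difference was -5.51 for scpl30, -5.41 for AT1G32970, -5.14 for BGLU24, -4.69 for AT2G26380, -3.87 for AT5G47980 and -3.80 for AT5G28520. Genes also expressed in leaves followed, with -3.27 for AT2G37870, -3.25 for AT3G16530, -2.95 for CML38, -2.80 for AT4G32800, -2.68 for AT5G19240, -2.63 for AR781 and -2.05 for CML37. Family members of the same form were BGLU32 at -2.41, BGLU40 at -2.20, scpl28 at -2.20, GSTU25 at -2.38, GSTU22 at -1.48, GSTU26 at -1.40 and UGT78D1 at -2.36. Smaller ones were PUB23 at -1.83, AT2G41480 at -1.57, STZ at -1.56, AT5G66390 at -1.55, LBD16 at -1.20 and LBD29 at -1.02.

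With a rise in roots and a leaf step that did not pass, AT2G16005 was at 4.15, AT1G07690 at 3.62, AT2G33850 at 3.61, AT2G38600 at 3.56, AT4G14060 at 3.34, CYP71B37 at 3.12 and AT1G73600 at 2.98. AT3G45160 and JAL22 were both at 2.95, AT1G53070 at 2.82, scpl31 at 2.03, GSTU20 at 1.82, AUR1 at 1.17 and HTB1 at 0.95.

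With a fall in leaves and a root step that did not pass, EXPA16 was at 3.40, AT2G41190 at 3.07, AT4G02360 at 2.80, AT3G28270 at 2.74, AT3G13672 at 2.49, SWEET4 at 2.46 and DFR at 2.39. COR15B was at 2.05, COR15A at 2.04, UF3GT at 1.80, AT4G14090 at 1.79, UGT85A5 at 1.61, JAL23 at 1.60, AUR2 at 1.29 and XERICO at 1.21. With a rise in leaves and a root step that did not pass, EXPA8 was at -4.63, AT2G10940 at -2.68, AT5G44020 at -2.33, AT1G79770 at -2.31, BZIP61 at -2.25 and AT4G18970 at -2.20. SWEET2 was at -2.08, CYP71B36 at -1.95, RR16 at -1.58, PUB22 at -1.42, ARR15 at -1.23 and NRPA1 at -0.96.

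Where both steps passed in opposite directions, EXPA4 was at 2.66, AT3G02120 at 2.29, AT3G02640 at 2.22, AT1G14260 at 2.16, AT1G68470 at 1.95 and ALDH6B2 at 0.86, with roots up and leaves down. XTH19 was at -3.17, AT3G61400 at -2.53, AT5G14730 at -2.03, AT1G66180 at -1.90 and AT5G48900 at -1.88, with roots down and leaves up. Where both went the same way, AT1G33340 was at 1.82, AT4G33980 at 1.67, AT2G45180 at 1.33, PUB19 at 1.27 and COR27 at 1.22, and AT5G19110 at -2.61, AT5G52760 at -2.30 and AT3G17110 at -2.21. ALDH10A8 was at 0.64 with neither step past the threshold.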

How the results depend on the processing

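The organ difference kept its direction for the 87 called genes under the 20 alternatives in which it was refitted, 5 of the 114 named genes having no value where dim probe sets were left out. Of the 27 not called, 2 changed sign, WRKY6 (-0.04 to 0.38) and GUT2 (-0.19 to 0.16). Of the 87, 75 stayed past the threshold under each alternative. Most of the 87 were picked for a large organ difference past the threshold in these same arrays. Kept directions and calls are therefore in part built in and no separate support. The other 12 of the 87 lost the call without at least 1 of the 12 arrays, as given beside them. ALDH10A8 also lost it without the mean-variance trend (adjusted p = 0.056), under quantile normalisation (adjusted p = 0.059) and with the replicate block (adjusted p = 0.064), and AT2G45180 without the trend (adjusted p = 0.055). Of the genes not called, 16 gained a call under at least 1 alternative. With all 18 arrays in the fit, 183 probe sets had opposite steps and 130 unequal steps of the same direction, instead of 106 and 78. Array weights, which gave day 10 root replicate 3 a weight of 3.67 and day 10 root replicate 2 one of 0.433, put the root step at 5882 probe sets (3204 rose, 2678 fell) and the same-direction class at 122. The leaf arrays fitted alone gave 1795 probe sets for the leaf step (932 rose, 863 fell). Leaving out arrays in turn gave 1734 to 3215 probe sets for the leaf step, 913 to 1701 rising and 821 to 1533 falling, with the fewest without day 10 leaf replicate 2, and 418 to 727 for the leaf step alone. It gave 55 to 112 for opposite steps and 42 to 84 for the same direction, 42 being without day 11 leaf replicate 3. The cause of these moves was not tested, except that a left-out array takes away residual degrees of freedom by construction. The same-direction class was also 43 without day 11 root replicate 3, 47 without day 11 root replicate 2, 48 without day 10 root replicate 3 and 49 without day 11 leaf replicate 2.

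Whether replicate numbers pair the samples was not settled. Deviations from the group means correlated at -0.095 to 0.333 between same-numbered arrays (median 0.021, 4 of 18 pairs above 0.1). Between other arrays they correlated at -0.288 to 0.253 (median -0.013, 6 of 36 pairs above 0.1). Correlations of deviations within such small groups cannot decide the question. The main fit used no pairing, and some calls changed with a block. With the replicate block over all groups 2173 probe sets passed the organ difference (1059 higher, 1114 lower), and with the block within the time point 2053 (993 higher, 1060 lower). The block within the time point gave calls to BGLU27 (adjusted p = 0.0023), LEA4-5, AT1G76640, JAL33, ARL, PUB24 and SCPL45, and took that of AT5MAT and TBL34. Centring the arrays or normalising them by quantiles shifted the median step of all probe sets by less than 0.1. Signal over background limits what can be said of dim genes. Of the 2094 probe sets, 352 were dim in leaves on both days and 175 in roots, beside 5817 and 5660 of all 22746. Other probe sets of the named genes were not compared because there were none with 1 gene, and the search for promoter motifs was not run.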

Other observations

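Single genes of pathways with few measured members are given as values. AT5G38710, a proline dehydrogenase of proline breakdown, fell in roots to 6.94, 6.92 and 7.63 on day 11, against 8.67, 9.17 and 8.08 on day 10. Its leaf arrays overlapped, and its organ difference was -1.00 ± 0.48 (adjusted p = 0.23) in the limma fit. AT5G14520, a protein of ribosome biogenesis, did not pass, at -0.47 ± 0.22 (adjusted p = 0.23), unlike NRPA1. GUT2, a glycosyltransferase of secondary wall xylan, was at 0.02 ± 0.24 (adjusted p = 0.97). The small heat shock protein ATHSP22.0 lay between 3.95 and 4.73 on all 12 arrays, near background, at 0.16 ± 0.23 (adjusted p = 0.75). Among lists with a larger number of measured members, some wide differences did not pass, with replicates far apart. PRX52, a class III peroxidase, had 6.92, 7.48 and 6.89 in day 11 roots, against 4.49, 6.78 and 5.81 in day 10 roots, and its organ difference was 1.44 ± 0.62 (adjusted p = 0.19). HIS1-3, a linker histone of drought, was at 1.65 ± 0.73 (adjusted p = 0.2), and CYP71B5 was at 1.60 ± 0.66 (adjusted p = 0.16). Sugar transporters beyond the SWEET genes named above included SAG29, a SWEET gene of senescence, at 0.89 ± 0.50 (adjusted p = 0.32). The lists of aquaporins, of nitrate uptake and assimilation, and of suberin and the endodermal barrier had 0 measured members each, so they are not analysed here.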
